A study of Rattus norvegicus with 22 samples.

Results

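The genes described here are 10 genes of fast-twitch muscle fibres, namely Acta1, Myh2, Myl1, Mylpf, Tnni2, Tnnt3, Tnnc2, Atp2a1, Actn3 and Pvalb. They were taken by gene name from a table of 32623 genes, and each name matched 1 row. The data are RNA-seq libraries of gastrocnemius muscle (12) and epididymal adipose tissue (10) of obese male Sprague Dawley rats, made obese by high-fat feed, and rats on regular feed are not among the libraries analysed here. The groups are hypoxia exercise (HE, 3 muscle and 2 fat libraries), normoxia exercise (CE, 3 and 3), hypoxic quiet (H, 3 and 2) and normoxia quiet (C, 3 and 3), with M or F before the group for muscle or fat. Rats were 3 weeks old at the start, had 8 weeks of high-fat feed and then 4 weeks of intervention, in which quiet rats did no exercise and exercise rats ran on a treadmill at up to 25 m/min in CE and 20 m/min in HE. Oxygen was 21% in normoxia and lower in hypoxia, so MHE against MCE and the interaction also differ in running speed and cannot be told apart from it. The gastrocnemius, a calf muscle, is of mixed fibre types, and which portion of it was sampled is not given in the sources used here.

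Skeletal muscle shortens when myosin heads pull on actin filaments. A fibre is called fast or slow by the set of protein isoforms it makes, and a fast fibre makes its own isoforms of myosin, of the troponin switch on the thin filament, of the calcium pump and of the calcium buffer. The gastrocnemius of the rat is mostly fast. Acta1 encodes skeletal alpha-actin, which fast and slow fibres share, so it marks the amount of muscle transcript more than the fibre type. Myh2 encodes the heavy chain of a fast, oxidative myosin, Myl1 its essential light chain and Mylpf the fast regulatory light chain. Tnni2, Tnnt3 and Tnnc2 encode the inhibitory, tropomyosin-binding and calcium-binding subunits of fast troponin. Atp2a1 encodes SERCA1, the pump that returns calcium to the sarcoplasmic reticulum of fast fibres, Pvalb encodes parvalbumin, a soluble calcium buffer, and Actn3 encodes the alpha-actinin of the Z disc of fast fibres.

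Between 89.4% and 97.4% of all counts in muscle came from mitochondrial genes, and between 10.1% and 44.7% in fat. Levels are therefore given as nuclear CPM, the CPM of a gene when only counts outside the mitochondrial genome are totalled. Total counts ranged from 27149905 to 43834953 in muscle and from 31449793 to 44334313 in fat, which left 841153 (MH3) to 4334813 (MH2) nuclear counts in muscle and 20060028 to 36162561 in fat. A count of 3, the limit that a count of 0 allows, was worth 0.692 to 3.57 nuclear CPM in muscle and at most 0.15 in fat. Adipocyte markers summed to 957 to 2027 nuclear CPM in muscle and 23240 to 55296 in fat over 9 genes, and the 10 fast genes summed to 44660 to 105520 nuclear CPM in muscle. Nothing in the labels says that libraries of a group came from separate rats, although the methods count 1 rat per library, and p-values measure the spread between these libraries.

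Promoters are shown for 4 members whose levels are set beside each other below, Acta1, Mylpf, Tnnc2 and Atp2a1. Each line is the RefSeq sequence of the 250 bases before the start of transcription, build GRCr8, 5′ to 3′ on the strand of the gene. Capitals mark E boxes (CANNTG, either strand), the letters that MyoD and its relatives bind. The windows are chr19:68784195-68784444 (minus strand), chr1:191260039-191260288 (plus strand), chr3:173935340-173935589 (minus strand) and chr1:190475411-190475660 (minus strand).
Acta1: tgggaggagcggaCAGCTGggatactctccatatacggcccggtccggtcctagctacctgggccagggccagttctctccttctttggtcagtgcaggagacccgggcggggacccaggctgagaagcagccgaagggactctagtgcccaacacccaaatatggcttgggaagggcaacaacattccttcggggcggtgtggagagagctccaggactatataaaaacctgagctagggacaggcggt
Mylpf: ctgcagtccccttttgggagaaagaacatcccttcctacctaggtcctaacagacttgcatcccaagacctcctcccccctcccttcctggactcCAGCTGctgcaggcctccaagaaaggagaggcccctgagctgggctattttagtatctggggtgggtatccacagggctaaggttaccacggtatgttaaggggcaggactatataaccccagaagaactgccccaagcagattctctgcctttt
Tnnc2: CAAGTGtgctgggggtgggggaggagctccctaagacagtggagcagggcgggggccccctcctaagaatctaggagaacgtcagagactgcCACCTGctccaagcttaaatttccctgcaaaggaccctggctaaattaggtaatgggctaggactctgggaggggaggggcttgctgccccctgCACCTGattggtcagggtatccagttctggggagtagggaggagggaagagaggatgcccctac
Atp2a1: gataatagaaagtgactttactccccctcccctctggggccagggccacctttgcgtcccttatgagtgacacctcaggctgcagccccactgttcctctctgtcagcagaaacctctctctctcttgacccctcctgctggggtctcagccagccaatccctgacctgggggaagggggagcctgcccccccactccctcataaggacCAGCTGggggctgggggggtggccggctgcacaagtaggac

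An E box lay at position -237 in Acta1, at -155 in Mylpf and at -41 in Atp2a1, and Tnnc2 held 3. Windows were found for 9 of the members, with 2 for Myl1. Of these 10 windows, 8 held an E box, against 65.5% of all 33469 windows of this length. A CArG type motif, searched without the requirement for A or T between its ends and with matches that may overlap E boxes, was in 9 of 10, against 65.1% of all windows, and a TATA box (TATAAA) in 4 of 10, against 12.9%. An MEF2 type motif was in 1 of 10, the second window of Myl1, against 3.41% of all windows. Both strands were searched for each motif, and a match is a description of letters only.

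Per unit of gene length, measured as TPM rescaled over nuclear genes, Acta1 was the highest of the 10 in muscle at 26118 ± 6272 (SD, n = 12 libraries). Atp2a1 followed at 24714 ± 27559, and the 2 did not differ beyond their spread, with Acta1 higher in 9 of 12 libraries. Myl1 was at 11964 ± 4859 and Atp2a1 exceeded it in 7 of 12 libraries. Mylpf at 8041 ± 2464, Tnnt3 at 6660 ± 1439 and Tnnc2 at 6566 ± 2357 lay close together, and Tnnt3 exceeded Tnnc2 in 9 of 12 libraries. Tnni2 at 4533 ± 1209, Pvalb at 2703 ± 767, Actn3 at 1717 ± 551 and Myh2 at 1379 ± 375 came last, each above the next in all 12 libraries.

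The models of several of these genes differ in span from those of RefSeq, and their part in the order was not tested. The row of Myh2 spans 134410 bp on chromosome 10 (53713938 to 53848347, plus strand, Ensembl release 99), whereas RefSeq gives Myh2 26497 bp and places Myh1 and Myh4, the other fast myosin heavy chains, just downstream. Myh1 and Myh4 matched no row, so the Myh2 row may hold reads of several fast myosins. It also overlaps the row of Myh8, a developmental fibre gene. The row of Atp2a1 spans only 1114 bp on chromosome 1 (197856903 to 197858016, minus strand), against 18213 bp in RefSeq. The row of Tnni2 spans 2623 bp on chromosome 1 (215609036 to 215611658), against 144677 bp in RefSeq. The row of Mylpf spans 2842 bp, against 5615 bp in RefSeq, and that of Pvalb 12469 bp, against 14650 bp.

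Across treatments in muscle, the libraries of all groups overlapped for 9 of the 10 genes. Acta1 had 27787, 36999 and 30745 nuclear CPM in MHE, 22138, 44367 and 32328 in MCE, 26612, 36308 and 23581 in MH, and 38163, 33318 and 17981 in MC. All 4 groups overlapped, and the lowest and the highest library, MC3 and MCE2, differed 2.47-fold. Myh2 had 9020, 7031 and 6265 nuclear CPM in MHE, 4996, 5802 and 7887 in MCE, 5417, 10191 and 5963 in MH, and 7400, 5843 and 4421 in MC. MH2 was the highest library for Myh2 and MC3 the lowest, and no group stood apart.

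**Figure D1:**
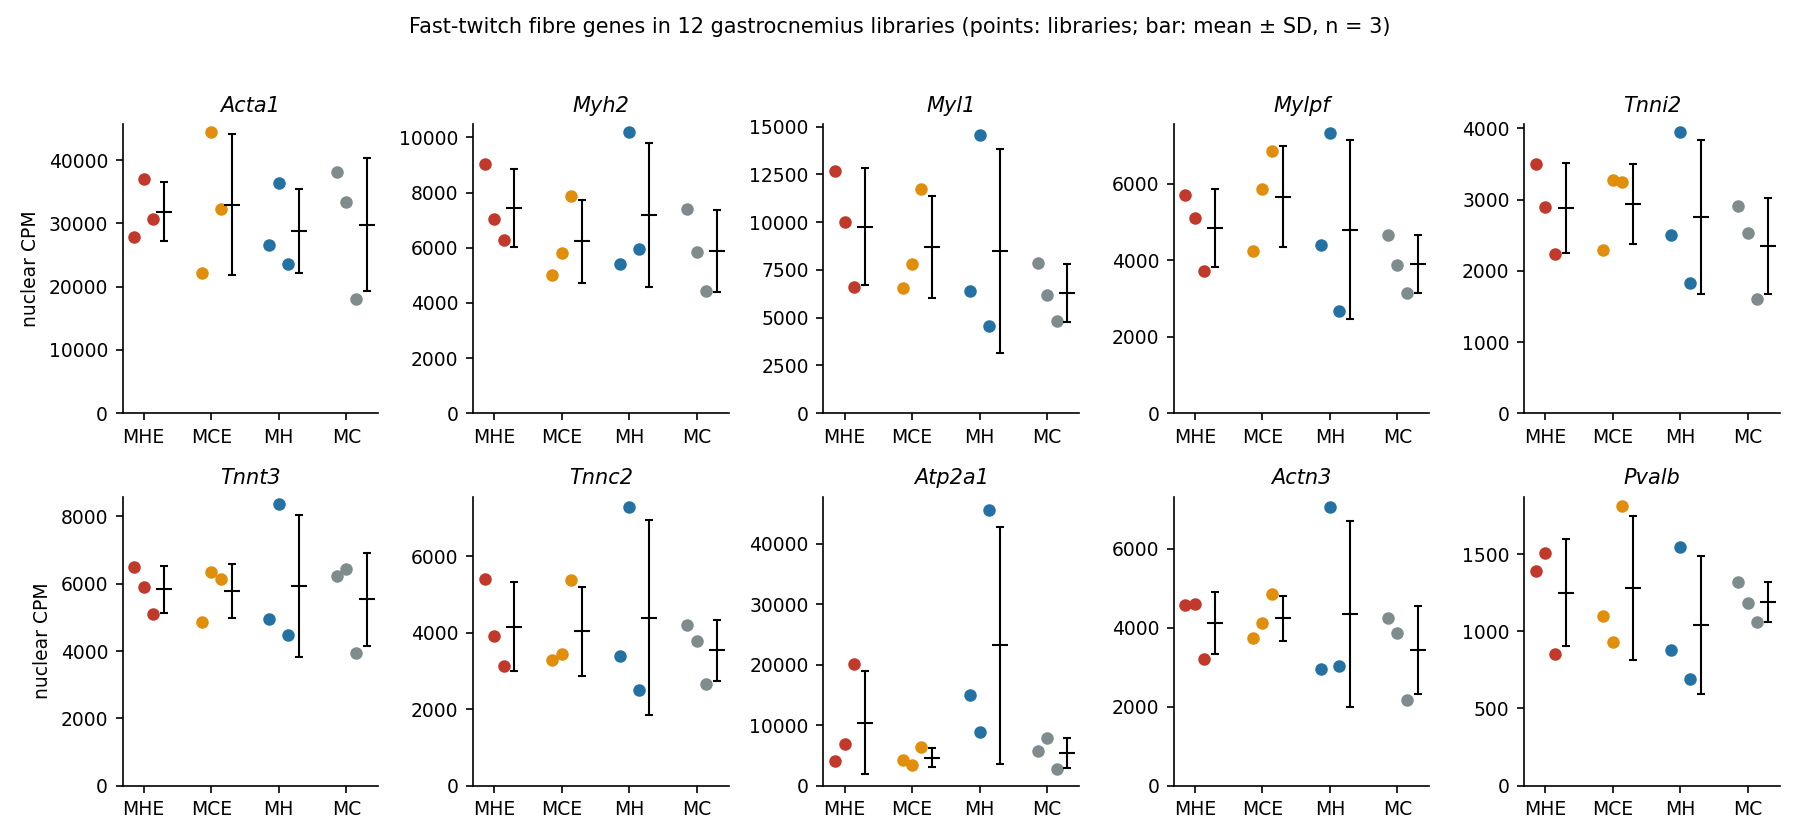
Nuclear CPM of each of the 10 genes (y axis, one scale per panel, starting at 0) in the 3 libraries of MHE, MCE, MH and MC (points), with the mean ± SD beside them. Groups overlap in every panel but that of Atp2a1, where the 3 MH libraries (8934 to 45628) lie above the 3 MC libraries (2831 to 7801) and the 3 MCE libraries (3378 to 6338). Of all genes, 8.22% had every MH library above every MC library, and the share for MH against MCE was not counted.

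The light chains and troponins followed the same libraries. Myl1 had 12693, 9983 and 6595 nuclear CPM in MHE, 6565, 7827 and 11723 in MCE, 6373, 14564 and 4545 in MH, and 7872, 6210 and 4840 in MC. Its 3.20-fold range in muscle lay within MH alone, between MH3 and MH2. Mylpf averaged 4841 ± 1028 nuclear CPM in MHE, 5660 ± 1316 in MCE, 4796 ± 2347 in MH and 3901 ± 756 nuclear CPM in MC (SD over 3 libraries a group). Tnni2 ranged from 1605 (MC3) to 3943 (MH2) nuclear CPM over muscle, Tnnt3 from 3951 (MC3) to 8361 (MH2) and Tnnc2 from 2508 (MH3) to 7286 (MH2). The 3 troponin subunits thus had their highest library in common, MH2, which is also the muscle library with the most nuclear counts (4334813). MC3, the lowest library for Tnni2 and Tnnt3, had nearly as many (4230171). Actn3 ranged from 2165 (MC3) to 7076 (MH2) nuclear CPM. Pvalb averaged 1251 ± 348 nuclear CPM in MHE, 1281 ± 467 in MCE, 1040 ± 447 in MH and 1188 ± 128 in MC, with MCE3 the highest library at 1811.

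Atp2a1 was the exception. It had 4122, 6971 and 20174 nuclear CPM in MHE, 4164, 3378 and 6338 in MCE, 14989, 8934 and 45628 in MH, and 5680, 7801 and 2831 in MC. Every MH library was above every MC library, and the highest library, MH3, was 16.1-fold above the lowest, MC3. In MHE only MHE3 stood high, and the other 2 libraries lay within the range of MC. The pump gene thus took 48.1% of the counts of all 10 members in MH3 and 24.6% in MHE3, against a median of 7.77% over muscle.

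To ask what exercise, hypoxia and their combination did to these genes, all genes were tested in 1 fit of the 12 muscle libraries (edgeR, Benjamini-Hochberg over 12421 genes). None of the 10 members changed at an adjusted p under 0.05 in any comparison. The background is as low, since the share of all genes that passed was 0.00805% for MCE against MC, 0.0403% for MH against MC, 0.00805% for MHE against MH, and 0.0% both for MHE against MCE and for the interaction of exercise and hypoxia. At an unadjusted p under 0.05, 384, 1046, 465, 445 and 475 genes passed in these 5 comparisons, among them 1 member in 1 comparison, Atp2a1 in MH against MC. DESeq2 called none of the members in muscle either, and over all genes it called 0.0325%, 1.09%, 0.0271%, 0.0815% and 0.097% (6, 104, 5, 13 and 12 genes). The comparisons share control libraries and are not independent of each other.

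Atp2a1 had a log2 fold change of 2.05 in MH against MC (SE 0.66, unadjusted p = 0.00763, adjusted p = 0.379 from edgeR). Its 3 MH libraries lay above its 3 MC libraries, as did those of 8.22% of 12384 genes, while 5.6% had every MH library lower. Among the 10 members no other was separated in the 4 pairs of groups compared here. Outside those pairs, the Atp2a1 levels of MH also lay above all of MCE. That pair was seen in the values, and the share of all genes separated in it was not counted. Over all genes every library was higher in 4.21% and lower in 3.48% for MCE against MC, higher in 3.93% and lower in 4.84% for MHE against MH, and higher in 4.82% and lower in 4.72% for MHE against MCE. Without MH3 the log2 fold change was 1.09 (adjusted p = 0.802 from edgeR), so that library carries much of the size. In MHE against MCE the log2 fold change was 1.20 (SE 0.64, adjusted p = 0.997), and in MHE against MH it was -1.09 (SE 0.64, adjusted p = 0.99999), neither past the threshold in edgeR. In MHE against MCE the adipocyte markers also differed, with sums of 1685 to 2027 nuclear CPM in MHE and 957 to 1097 in MCE over 9 genes, of which up to 2 were at 0 in a library of MCE. Endothelial markers summed to 292 to 449 nuclear CPM in MHE and 226 to 277 in MCE over 5 genes, of which at most 1 was at 0. DESeq2 called the adipocyte gene Plin1 higher and the globin gene Hbb lower there (erythroid sums of 790 to 1415 nuclear CPM in MHE and 2977 to 7571 in MCE), and their part in the result was not tested. Without MHE3 the log2 fold change of Atp2a1 in MHE against MCE was 0.27 and without MH3 that in MHE against MH was -0.13. The interaction was -0.85 (SE 0.90) and 0.10 without MH3.

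The libraries high for Atp2a1 also differ in depth. MH3 had the fewest nuclear counts and the highest mitochondrial share of all muscle libraries (841153 and 97.4%), and over 12 libraries log2 Atp2a1 had r = -0.55 with log2 nuclear counts, libraries that also share their scaling. The other members had r of -0.22 (Acta1) to 0.59 (Pvalb) with log2 nuclear counts, so a link with depth is not particular to Atp2a1. With the mitochondrial share as a covariate the log2 fold change in MH against MC was 1.91 (adjusted p = 0.115 from edgeR). Markers of smooth muscle summed to 920 to 1397 nuclear CPM in MH and 655 to 899 in MC over 6 genes, none of them at 0. Erythroid markers ran the other way, with sums of 487 to 1688 nuclear CPM in MH and 2011 to 3522 in MC over 3 genes, of which at most 1 was at 0. The part of these differences in the result was not tested.

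**Figure D2:**
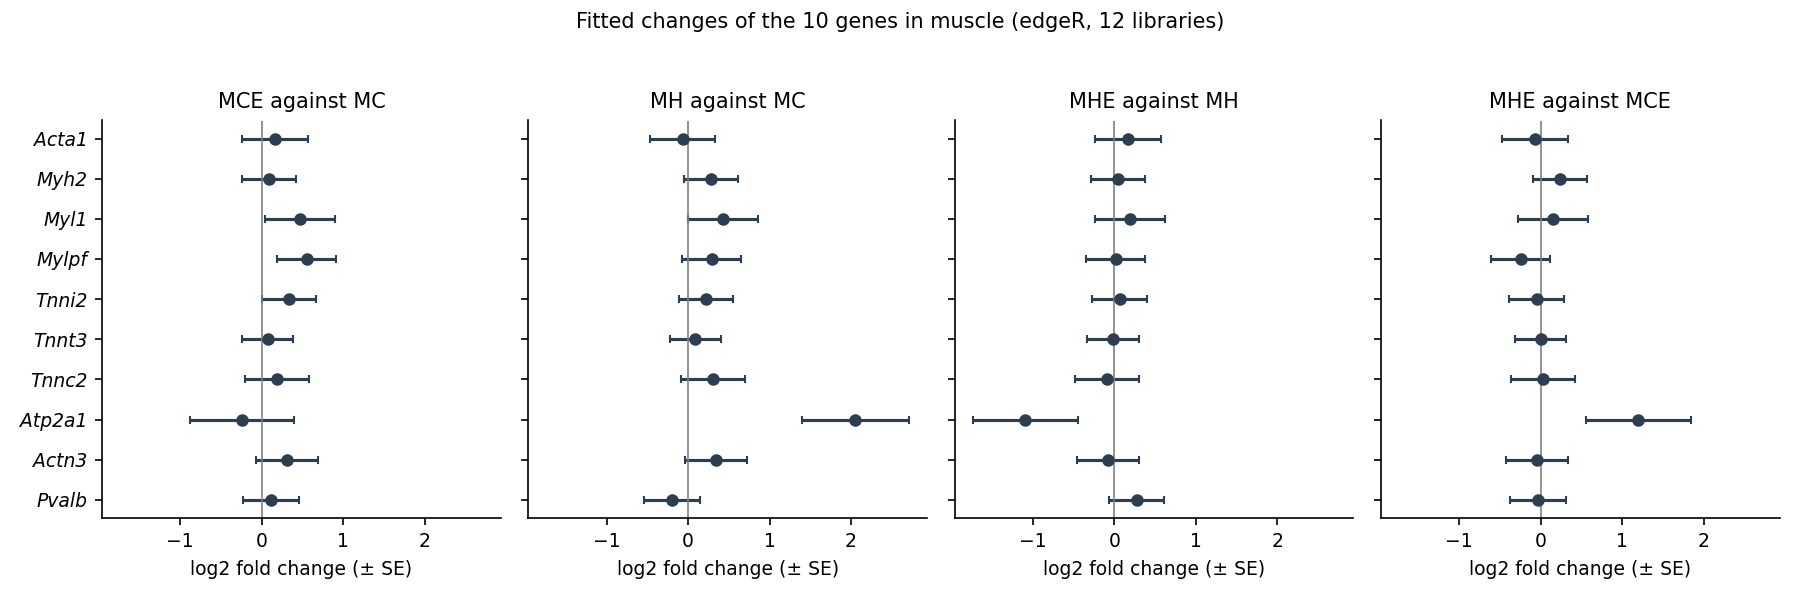
Fitted log2 fold changes with SE (x axis) of the 10 genes in 4 comparisons of muscle groups by edgeR. The points of 9 genes lie between -0.24 and 0.55 in all 4 panels, and Atp2a1 lies apart at 2.05 in MH against MC, 1.20 in MHE against MCE and -1.09 in MHE against MH.

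For the other 9 members the log2 fold changes had an SE of 0.31 to 0.43, and none passed the test. They lay between 0.07 and 0.55 in MCE against MC, where the highest was that of Mylpf (SE 0.36, adjusted p = 0.9998 from edgeR), with a median of 0.18 over all 10 members against 0.00 over all genes tested. In MH against MC they lay between -0.20 and 0.43, and the median over the 10 was 0.29, against 0.00 over all genes. In MHE against MH they lay between -0.09 and 0.27, and in MHE against MCE between -0.24 and 0.24, with medians over the 10 of 0.03 and -0.02, against -0.01 and 0.00 over all genes. Leaving out MH2 alone brought the median in MH against MC to -0.27 and that in MHE against MH to 0.50. Summed over the 10 members, the share of nuclear counts was 8.25% ± 0.215 (SD) for the 3 MHE libraries, 7.64% ± 1.65 for the 3 of MCE, 9.10% ± 1.69 for the 3 of MH and 6.74% ± 2.01 for the 3 of MC, and MHE was the group with the least spread, within the range of the others.

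Most members moved together over the 12 muscle libraries, which share their scaling and differ in depth. Group means were not removed, so variation within and between groups was not told apart. The 9 members other than Atp2a1 had pairwise Pearson r of log2(nuclear CPM + 1) between 0.35 and 0.95 (median 0.83, 36 pairs). Without Acta1 and Pvalb, whose pairs include the lowest of these r, the range was 0.72 to 0.95 (median 0.89, 21 pairs). The closest pair was Myl1 and Tnnc2. Acta1 had r of 0.35 to 0.79 with the members other than Atp2a1, and Pvalb 0.35 to 0.82. Atp2a1 had r of -0.52 to 0.05 with the others.

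The genes most like the mean of the members over these 12 libraries, among 8602 genes with a mean of at least 10 nuclear CPM and a symbol other than a locus identifier, were Tmod4 (r = 0.90), Eno3 (0.88), Mllt3 (0.87), Aup1 (0.86) and Orai1 (0.85). Tmod4 encodes a cap of thin filaments in skeletal muscle, and Eno3 encodes the enolase of muscle, a glycolytic enzyme. Mllt3 encodes a chromatin reader, Aup1 a protein of lipid droplets and the endoplasmic reticulum, and Orai1 the pore of a calcium channel in the plasma membrane. Tmod4 had 785, 536 and 512 nuclear CPM in MHE, 449, 687 and 598 in MCE, 538, 1027 and 481 in MH, and 619, 557 and 335 in MC. It was thus highest in MH2 and lowest in MC3, like Tnni2 and Tnnt3.

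Atp2a1 had other companions, looked for after its values were seen. Its closest was Rabep2 (r = 0.98 over 12 libraries), which encodes an effector of endosomal Rab proteins, followed by Sgcb and Gpc4. Rabep2 had 1991, 2326 and 5851 nuclear CPM in MHE, 1335, 1040 and 2293 in MCE, 4312, 3248 and 12142 in MH, and 1360, 2243 and 917 in MC. The ratio of Atp2a1 to Rabep2 was 2.07 to 4.18 in all 12 muscle libraries, while Atp2a1 itself ranged 16.1-fold. Rabep2 lies at 197839430 to 197856312 on the plus strand of chromosome 1, with its end 590 bp from the row of Atp2a1 on the minus strand. In RefSeq, on another build, the ends of these genes overlap. The library kit keeps strand, but whether counting used it is not given in the sources used here, so reads of Atp2a1 and Rabep2 may not be fully told apart, and both levels are uncertain.

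**Figure D3:**
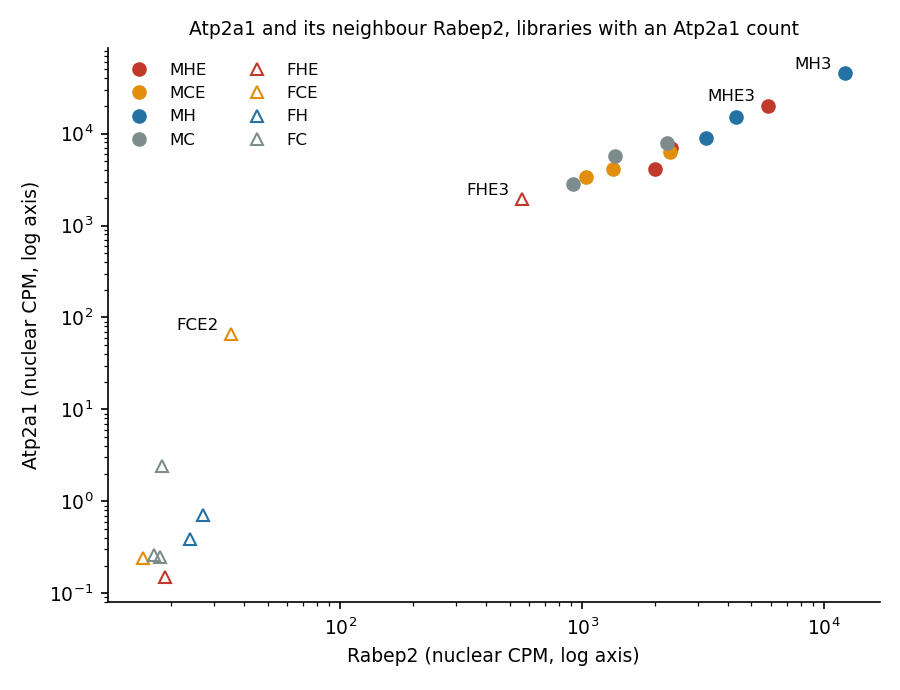
Nuclear CPM of Rabep2 (x axis) and Atp2a1 (y axis), both on log axes, in the 12 muscle libraries (filled circles) and the 9 fat libraries with an Atp2a1 count (open triangles), coloured by group. Muscle libraries lie along 1 line up to MH3 (12142 and 45628), and FHE3 (565 and 1926) lies on its lower extension.

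Among other genes of the fast programme, calls in muscle differed between settings. Of 8 measured fast fibre companions, none passed in the filtered edgeR fit in any of the 5 comparisons. Ampd1, which encodes the muscle AMP deaminase, had 1043, 1534 and 990 nuclear CPM in MH and 579, 379 and 382 in MC. Its log2 fold change in MH against MC was 1.40 (SE 0.32, adjusted p = 0.168 from edgeR), and both DESeq2 (adjusted p = 0.00272) and edgeR without a filter (adjusted p = 0.0426) called it. The companions of highest level were Tpm1, a tropomyosin, at 7577 nuclear CPM, Casq1, the calcium store protein of the reticulum, at 2620.5, and Myoz1, a Z disc protein, at 1661 (means of 12 libraries). Casq1 was highest in MH3 at 6905 nuclear CPM, the library that was highest for Atp2a1.

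None of 11 fast glycolytic enzymes changed in edgeR. Phka1, a regulatory subunit of phosphorylase kinase, had 65.0, 51.2 and 47.6 nuclear CPM in MH and 150, 90.0 and 120 in MC. DESeq2 called Phka1 lower in MH against MC (log2 fold change -1.15, adjusted p = 0.0106), and edgeR gave -1.16 with an adjusted p = 0.164. Ckm, the muscle creatine kinase, Aldoa, an aldolase, and Pygm, the muscle glycogen phosphorylase, were the highest of this list at 11373, 9606 and 3800 nuclear CPM.

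The slow fibre genes of highest level in muscle were Mb, which encodes myoglobin, at 2308 nuclear CPM, Tpm3, the slow tropomyosin, at 403 and Myl3, a slow myosin light chain, at 297 (means of 12 libraries). Myh7, the slow myosin heavy chain, had 127, 3.44 and 685 nuclear CPM in MHE, 6.05, 813 and 169 in MCE, 298, 20.1 and 514 in MH, and 352, 354 and 119 in MC. The highest and lowest libraries of Myh7 over all muscle were thus MCE2 and MHE2, in exercise groups both, while Myh2 differed 1.44-fold and 1.58-fold within the same groups. No slow gene of 11 tested was called in edgeR or DESeq2, and their median log2 fold change was -0.63 for MH against MC, and for MHE over MCE it was -0.93. The summed level of the 9 fast genes without Atp2a1 over that of 12 slow genes was 34.2, 50.5 and 11.4 in MHE, 36.4, 6.85 and 24.5 in MCE, 13.2, 75.7 and 14.3 in MH, and 13.2, 9.27 and 15.6 in MC. The 3 MC libraries were close together, each other group had at least 1 library above them, and all groups overlapped with MC. The part of the sampled portion of muscle in these differences was not tested.

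**Figure D4:**
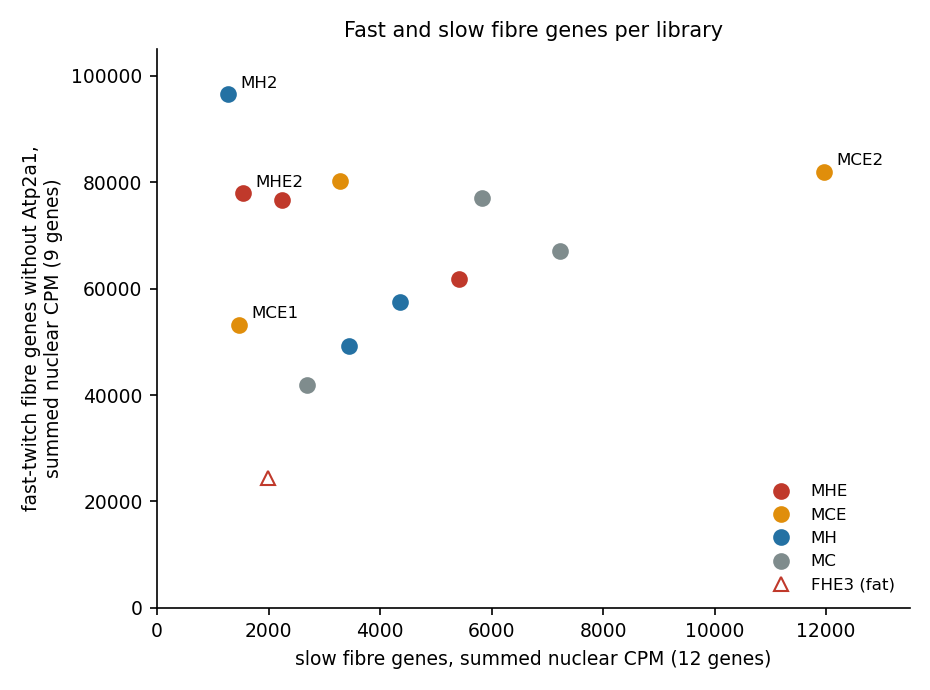
Summed nuclear CPM of 12 slow fibre genes (x axis) and of 9 fast-twitch fibre genes without Atp2a1 (y axis), 1 point per muscle library coloured by group, with the fat library FHE3 as an open triangle. The fast sum spans 41829 to 96586 in muscle and the slow sum 1276 to 11965, and libraries of 1 group lie far apart along the slow axis.

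None of 13 tested fibre type regulators was called in edgeR or DESeq2 in muscle. Among them Mef2c was at 181 nuclear CPM and Tbx15 at 78.4 (means of 12 libraries), both transcription factors of muscle. Of 10 tested sarcomere genes of all fibres, led by Des at 2892 nuclear CPM, Tpm2 at 2710 and Ldb3 at 892, none was called either. The same holds for 5 developmental fibre genes, led by Actc1 at 29.5, Myl4 at 14.1 and Ncam1 at 7.91 nuclear CPM.

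Fat has no muscle fibres of its own, and its libraries served as the comparison for the level of these genes in muscle. All 10 members were higher in muscle against fat in 1 fit of 22 libraries with treatment as a covariate (edgeR), and 58.6% of 13797 genes passed in either direction. Whether muscle and fat libraries of the same number come from 1 rat is not given in the labels, and the fit took all 22 as independent. The log2 fold changes ran from 7.39 for Tnnt3 (SE 1.24, adjusted p = 2.72e-05) to 9.35 for Tnnc2 (SE 1.95, adjusted p = 0.000302), both from edgeR. With FHE3 and FCE2 left out, the median over the members was 12.14 in place of 8.44. Between muscle libraries, by contrast, fewer muscle fibres and less RNA per fibre cannot be told apart in bulk tissue.

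In 2 fat libraries, FHE3 and FCE2, the fast genes stood far above the other 8. These 2 were named beforehand, since earlier results of these data had shown muscle transcripts in them, so their height is a description. FHE3 had 7031 nuclear CPM of Acta1, 7072 of Myh2, 1641 of Myl1, 1470 of Mylpf and 1156 of Tnni2. It had 2111 of Tnnt3, 1372 of Tnnc2, 1926 of Atp2a1, 1894 of Actn3 and 600 of Pvalb. The members thus made up 2.63% of its nuclear counts (95% Wilson interval 2.62% to 2.63%). FCE2 had 550 nuclear CPM of Acta1, 293 of Myh2, 84.0 of Myl1, 81.3 of Mylpf and 49.2 of Tnni2. It had 108 of Tnnt3, 37.9 of Tnnc2, 66.3 of Atp2a1, 106 of Actn3 and 28.7 of Pvalb, in all 0.140% of its nuclear counts (0.139% to 0.142%).

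**Figure D5:**
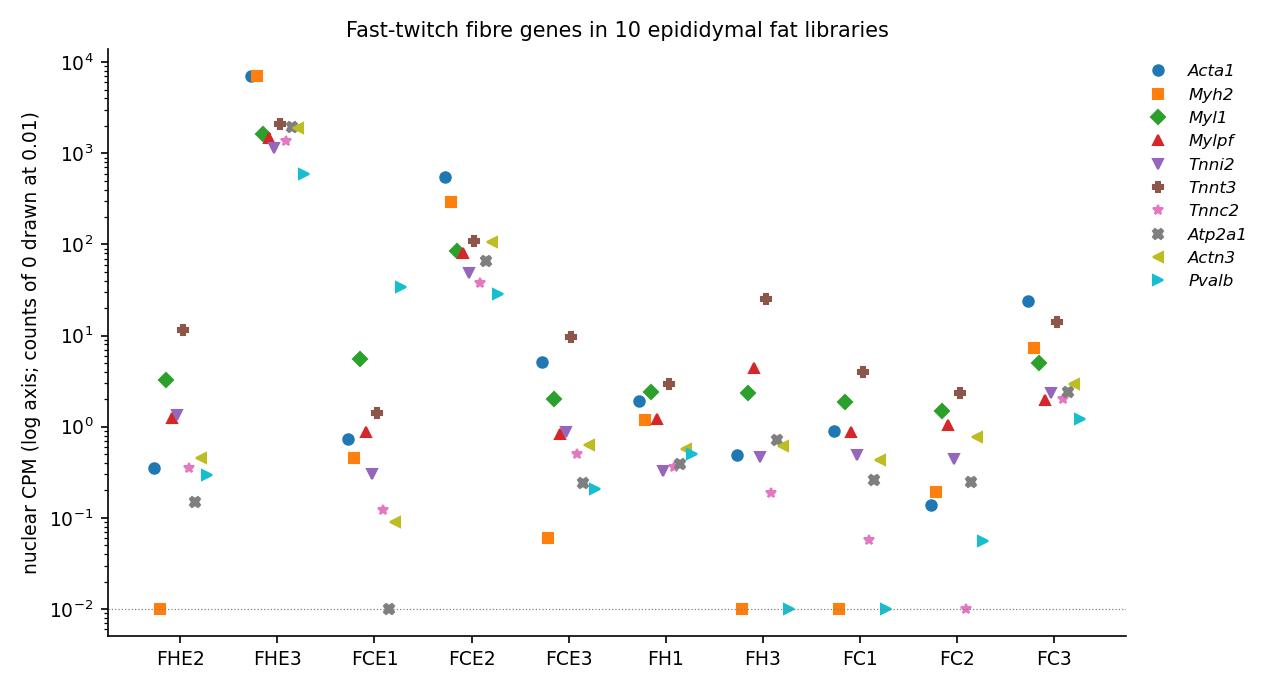
Nuclear CPM of the 10 genes (y axis, log scale, counts of 0 drawn at 0.01) in each of 10 fat libraries. All 10 symbols of FHE3 lie between 600 and 7072, those of FCE2 between 28.7 and 550, and those of the other 8 libraries at or below 34.3.

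In the other 8 fat libraries Acta1 was at 0.138 to 24.1 nuclear CPM (median 0.812), with FC3 the highest. Myh2 was at 0 in 3 of them, which allows up to 0.15 nuclear CPM, and at 7.40 in FC3. FC3 was the highest of the 8 for 6 members, among them Tnni2 at 2.34, Tnnc2 at 2.0, Atp2a1 at 2.42 and Actn3 at 2.94. Tnnt3 was the member with the highest median of the 8 at 6.87, and reached 24.9 in FH3. Pvalb was at 34.3 in FCE1, above the 28.7 of FCE2, while no other member exceeded 5.48 nuclear CPM there. Parvalbumin is also made outside muscle, by some neurons and kidney cells, and the source of these reads was not tested.

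FHE3 was 12.8-fold (Acta1) to 36.2-fold (Tnnc2) above FCE2, with a median of 20.2 over the members. Set against the median of the 12 muscle libraries, FHE3 held 22.3% of the level of Acta1, 22.8% of Myl1, 28.9% of Atp2a1, 38.0% of Tnnc2 and 116% of Myh2. FCE2 held 0.997% of Atp2a1, 1.74% of Acta1 and 4.79% of Myh2. The 2 fat libraries thus share a higher part of the Myh2 row than muscle libraries have, and that row may hold reads of several myosins. Of all member counts, Myh2 took 26.9% in FHE3 and 20.9% in FCE2, against 6.28% to 11.2% in the 12 muscle libraries. The ratio of Acta1 to Myh2 was 0.994 in FHE3 and 1.88 in FCE2, and 3.08 to 7.65 in muscle. Actn3 was also above its muscle range (3.19% to 6.71%) in both, at 7.21% in FHE3 and 7.55% in FCE2, and Tnni2 in FHE3 only (4.40%, against 1.93% to 4.33%). The other 7 members lay within their muscle ranges in both libraries. The 2 libraries also differed from each other, with Acta1 at 26.8% of member counts in FHE3 and 39.1% in FCE2. Tnnc2 was at 5.22% in FHE3 and 2.70% in FCE2.

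Other genes were high in FHE3 and FCE2 as well. By the rule that FHE3 and FCE2 are each at least 10 times the highest of the other 8 fat libraries, 81 of 32586 nuclear genes passed (0.249%), 8 members among them, and Tnnt3 and Pvalb missed it. Of the 81 genes, 56 (69.1%) were higher in every muscle library than in those 8 fat libraries, against 2.84% of all nuclear genes, and the other 25 were not. Both the rule and this share use the highest of the same 8 libraries. All nuclear genes are also not matched to the 81 for level, so the 2 shares are a description and not a test. The 5 non-members with the highest level in FHE3 were Ckm (4582 nuclear CPM), Mybpc2 (827), which encodes fast myosin-binding protein C, Myh7 (469), Cox6a2 (442), a muscle subunit of cytochrome c oxidase, and Mb (340), which encodes myoglobin. In FCE2 the same genes were at 285, 38.9, 33.1, 10.9 and 29.0 nuclear CPM. The ratio of the 9 fast genes to the 12 slow genes was 12.2 in FHE3, inside the muscle range of 6.85 to 75.7. It was 2.46 in FCE2, below that range. The slow genes of FCE2 summed to 543 nuclear CPM, a level that fat reached without high fast genes (357 in FHE2, 629 in FH3). The value of 2.46 thus does not describe muscle transcripts alone. FHE3 had a slow sum of 1989, which may hold the same background. Neb, which encodes the giant filament protein nebulin and was chosen after its values were seen, had 875 nuclear CPM in FHE3, inside its muscle range of 385 to 957, and 22.3 in FCE2. Rabep2 was at 565 nuclear CPM in FHE3 and 35.3 in FCE2, against 15.3 to 26.9 in the other 8. Atp2a1 over Rabep2 was 3.41 in FHE3, inside the muscle range, and 1.88 in FCE2, below it. With Rabep2 present in every fat library, that ratio in FCE2 does not describe muscle transcripts alone either.

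Adipocyte markers, none of 9 at 0, summed to 39667 to 42226 nuclear CPM in FHE, 39512 to 55296 in FCE, 23240 to 45321 in FH and 40298 to 51706 in FC. Other sums did not overlap between FHE and FH, namely fibroblast (2353 to 2759 in FHE, 6897 to 8427 in FH), macrophage (1009 to 1424, 1591 to 4063) and mesothelial markers (54.9 to 74.0, 131 to 876). Between FHE and FCE, nerve (1863 to 2144 in FHE, 4052 to 6497 in FCE), erythroid (711 to 1901, 2147 to 9653) and mesothelial sums (19.4 to 40.6 in FCE) did not overlap. The part of these sums in the results was not tested. In the fits of the 10 fat libraries no member was called in edgeR, where 0.0% of 16364 genes passed in each of FHE against FH, FHE against FCE, FCE against FC and FH against FC (unadjusted p under 0.05 in 2753, 1859, 824 and 777 genes). Log2 fold changes of the members in FHE against FH ran from 6.63 to 12.58 with SE of 2.57 to 5.55, and adjusted p from 0.223 to 0.294 from edgeR. DESeq2 gave an adjusted p to 1 member there, Pvalb, and called it (adjusted p = 0.0289), as it did 6.62% of genes, while it gave none to the other 9. Both FHE libraries had a mitochondrial share of 40.7% to 44.7%, against 10.1% to 22.6% in the other 8, and with that share as a covariate the median over the members was -3.46 for FHE against FH and -4.51 for FHE over FCE. The values also rest on FHE3 and FCE2. With both left out, FHE2 was the only FHE library. The median over the members was then -0.06 in FHE against FH, in place of 10.79. It was 0.27 in place of 4.68 in FHE against FCE, and -0.91 in place of 4.61 in FCE against FC.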

How the data were processed

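Raw counts per gene were used as the authors deposited them, with TPM values from the same table. Per the labels and methods, reads of a stranded mRNA kit were checked with FastQC, trimmed with Trimmomatic and aligned with HISAT2 to the Ensembl release 99 annotation. The counting program, its strand setting and tool versions are not given in the sources used here. FPKM columns were not used. Hypoxia was 13.6% oxygen.

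Nuclear CPM is counts divided by counts outside the 37 mitochondrial genes. Nuclear TPM is the deposited TPM rescaled over nuclear genes. Tests were edgeR 4.0.16 quasi-likelihood fits (R 4.3.3, limma 3.58.1) with TMM, filterByExpr and 1 mean per group in each tissue, two-sided, with Benjamini-Hochberg adjustment over all genes tested and a threshold of 0.05. SE is the log2 fold change over the root of F. The code was tested on simulated data. Correlations used log2(nuclear CPM + 1). Intervals are Wilson 95% and, like the limit of 3 counts for a count of 0, cover counting error only. Python 3.11.15, numpy 2.4.6, pandas 2.3.3, scipy 1.17.1 and matplotlib 3.10.9 made the other values.

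The 10 members and 16 other gene lists (133 entries in all 17, 126 matched once, 6 unmatched, 1 with 2 rows) were chosen with earlier results of these data known. So were FHE3 and FCE2, as fat libraries with muscle transcripts. Of the 6 other fibre lists, the 3 genes of highest mean in muscle were named, since edgeR called none in muscle with its filter, and marker lists are given as sums only where they bear on a result. List genes called by an alternative in muscle are named too, those in fat are not. The rule also named the 5 genes most like the members and the 5 non-members highest in FHE3 under the 10-fold rule. Others are said to be chosen after their values were seen. A gene that this rule names is not reported here. Alternatives were DESeq2 1.42.0, other filters, scalings and pseudocounts, the mitochondrial share as a covariate, a replicate block and libraries left out.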

Additional observations from a re-analysis of the deposited data

How the results depend on the processing

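No member was called in a comparison of treatments under any alternative in muscle, and in fat 1 was called, Pvalb in FHE against FH by DESeq2, which gave no adjusted p to the other 9. Leaving out 1 library at a time moved the log2 fold change of Atp2a1 between -0.56 and 0.13 in MCE against MC, between 1.09 and 2.42 in MH against MC (adjusted p 0.308 to 0.802 from edgeR) and between -1.78 and 0.10 in the interaction. In MCE against MC it turned positive without MC2. Ampd1 passed in MH against MC with DESeq2 (1.40) and without a filter (1.41), and the cause was not tested. With the mitochondrial share as a covariate, the median of the members was -3.46 for FHE against FH, and for FHE over FCE it was -4.51. In muscle against fat all members were called higher under the alternatives run, except that DESeq2 gave an adjusted p to 9, all called.

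Replicate numbers were not taken to pair the libraries. Same-numbered libraries of different groups had r of -0.228 to 0.311 in muscle (4 of 18 over 0.1) and -0.502 to 0.587 in fat (9 of 12 over 0.1, against 6 of 25 for other numbers), and 3 of 12 muscle and 7 of 10 fat libraries correlated best with their own number, a hint in fat from the data and not from the design. Group means were removed first. The 2 libraries of FHE, and the 2 of FH, are then mirror images of each other, so the fat counts are not independent. With a replicate block 0 members were called, and over all genes 1, 2, 1, 0 and 0 in the 5 muscle comparisons and, in fat, 1 for FHE against FCE and 0 for the other 3. DESeq2 called 6, 104, 5, 13 and 12 genes there and 76, 152, 1010 and 476 in FCE against FC, FH against FC, FHE against FH and FHE against FCE. Without a filter edgeR called 2, 57, 2, 4 and 4 in muscle. Leaving out 1 library gave 0 to 2, 2 to 11, 0 to 2, 0 to 1 and 0 to 1 in muscle and up to 16 in fat. With nuclear totals and no TMM, 69.0% of genes were positive in FH against FC in place of 51.4%, and 35.4% in place of 46.2% in FHE against FH.

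MH3 has 841153 nuclear counts, and groups have 2 to 3 libraries, which limits precision.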
